A study of Gallus gallus with 40 samples.

Results

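The comparison described here is that of liver from chickens of a high growth (HG) line and a low growth (LG) line at 1 week of age. It rests on the 12 arrays titled 1 week of age, replicates 1 to 12, of 40 arrays in the series. The other 28 arrays held HG and LG liver at 3, 5, 7, 9 and 11 weeks. Each array was a spotted cDNA array hybridised with HG liver cDNA in one Alexa Fluor dye and LG liver cDNA in the other, so an array is itself 1 comparison of the lines. The HG line was bred for high body weight and the LG line for low body weight, with selection at 8 and 32 weeks of age, and birds of both lines were kept under a standard broiler regime. No other treatment is named for either line, and the sex of the birds is not given in the sources used here. HG carried Alexa Fluor 555 on 6 of the arrays and Alexa Fluor 647 on the other 6, in equal numbers within replicates 1 to 4 and within replicates 5 to 12.

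The series design describes a first hybridisation with 4 birds of each line and a second one of 8 arrays, which was run to check the few differences found at the 2 youngest ages. The second one used the same 4 birds of each line again beside 4 new ones. Replicates 1 to 4 were taken as the first hybridisation and replicates 5 to 12 as the second, from their numbers. Which arrays share birds is not given in the labels. A fit of all 12 arrays therefore counts some birds more than once, which makes its p-values too small, and the 2 sets of arrays are not independent of each other.

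The liver of a young chick takes over from the yolk as the main supplier of lipid, and in birds it is the main site of fatty acid synthesis. Acetyl-CoA made by ATP citrate lyase (ACLY) is built into palmitate by fatty acid synthase (FASN), and the products leave the liver in lipoproteins. The liver also secretes most plasma proteins, among them albumin, transferrin and the acute phase proteins, whose synthesis is raised or lowered in inflammation. Lines bred apart for growth are used to ask which liver genes go with growth and fatness.

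Of 19200 spots, 13382 had a value on at least 1 of the 12 arrays and 5037 on all of them. Spots of 1 accession were averaged to a probe, and the test kept probes that had a value on 3 or more of replicates 1 to 4 and on 6 or more of replicates 5 to 12. This left 6731 probes. Of these, 4021 had a gene symbol, for 3265 genes, and 2710 had none and are called by their position on the array, such as 1.14.9. The deposited values are ratios of the dyes, so they give no level of a gene, and the tissue can be checked only in part: 13 of the 15 listed hepatocyte genes on the array were measured well enough to be tested. In bulk liver, fewer cells of a type and less RNA per cell cannot be told apart.

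Each log2 ratio was turned by the dye that HG carried, and the line effect was estimated beside a dye effect with limma, with Benjamini-Hochberg adjustment over all probes and a threshold of 0.05. The deposited table does not state which dye is the numerator. A positive value below stands for a higher level in HG where 647 is the numerator, which is likely since the design calls 647 red and the labels put it in channel 2. If the ratio is 555 over 647, every sign turns and HG and LG change places. All words of direction below carry that condition. If the table instead holds HG over LG already, the line and dye effects change places, and 2493 probes (37%) would be called, 1151 higher and 1342 lower in HG, in place of the 3 below. Unturned ratios of arrays with opposite orientation correlated across probes at a median r of 0.374 within replicates 1 to 4, 0.475 within replicates 5 to 12 and 0.047 between the sets. For arrays with the same orientation these medians were 0.457, 0.556 and 0.310. The ratios were read as dye ratios because the design text speaks of few differences at this age, so the low counts below rest on that reading and are no independent finding.

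Read as dye ratios, the arrays at 1 week gave 3 called probes. ORM1, which encodes the acute phase plasma protein orosomucoid, was 1.59-fold higher in HG liver. GATM, the enzyme of the first step of creatine synthesis, was 1.59-fold lower in HG liver. The third call was the unnamed probe 1.14.9, which was 1.67-fold lower in HG liver. These 3 probes made up 0.0446% of the 6731 tested, with 1 higher (0.0149%) and 2 lower (0.0297%) in HG. At an unadjusted p under 0.05, 321 probes (4.77%) passed, 143 higher (2.12%) and 178 lower (2.64%) in HG.

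The log2 values of ORM1, turned to HG over LG and with the dye effect removed, were 0.36, 0.81, -0.04 and 1.07 on replicates 1 to 4. On replicates 5 to 12 they ran from 0.07 to 1.11 with a median of 0.73. All arrays but replicate 3 were above 0. The line effect of ORM1 was 0.67 (SE 0.099, n = 12 arrays, limma adjusted p = 0.0238). In these values, and in the array values below, the dye effect removed was that of the 12-array fit, shared by both sets of arrays.

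GATM had log2 values of -1.08, -1.01, -0.47 and -0.48 on replicates 1 to 4. GATM ran from -1.45 to -0.18 on replicates 5 to 12, with a median of -0.56. GATM was below 0 on 12 of 12 arrays. Its line effect was -0.66 (SE 0.099, n = 12 arrays, limma adjusted p = 0.0238). GAMT, which completes creatine synthesis, had -0.13 on the log2 scale and did not pass.

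The unnamed probe 1.14.9 had log2 values of -0.09, -0.79, -0.89 and -1.10 on replicates 1 to 4. On replicates 5 to 12 the probe 1.14.9 ran from -1.27 to -0.29 with a median of -0.85. With the dye effect removed it was below 0 on all 12 arrays, with replicate 1 nearest to 0. With the dye effect left in, it was above 0 on 1 array with HG in 555. The line effect was -0.74 for 1.14.9 (SE 0.094, n = 12 arrays, limma adjusted p = 0.0123).

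These calls were close to the threshold. ORM1 lost its call when any 1 of 9 of the 12 arrays was left out, with adjusted p up to 0.104, while its log2 value stayed between 0.62 and 0.74. GATM lost its call for 6 of the 12 arrays, with adjusted p up to 0.104 and values between -0.71 and -0.59. The probe 1.14.9 lost its call without replicate 2, 6 or 8, with adjusted p up to 0.0656. All 3 called probes, and also TMEM123, PSPH, 8.14.3, 13.14.11 and 46.14.14 described below, have 14 as the second number of their spot position. Among other genes named below, so do STEAP3, ATP5H, TM4SF4, PHYH, SULT, SAA, CYP2C18, LBFABP, FABP1 and GHR. It is also the number of 1 probe each of TTR, STK10 and FADS2. No source used here says what that number means. Of 438 tested probes with this number 33 (7.53%) had an unadjusted p under 0.01, against 54 of 6293 others (0.858%), and their median line effect was 0.050 in size, against 0.025. The part of the position in the calls was not tested.

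With the spread shared among all 40 arrays neither ORM1 nor GATM was called (limma adjusted p of 0.9998 each). Of the 6092 probes in that fit 0 were called, with 73 at an unadjusted p under 0.05. The probe 1.14.9 was not among the 6092, so its call was not tested there.

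**Figure D1:**
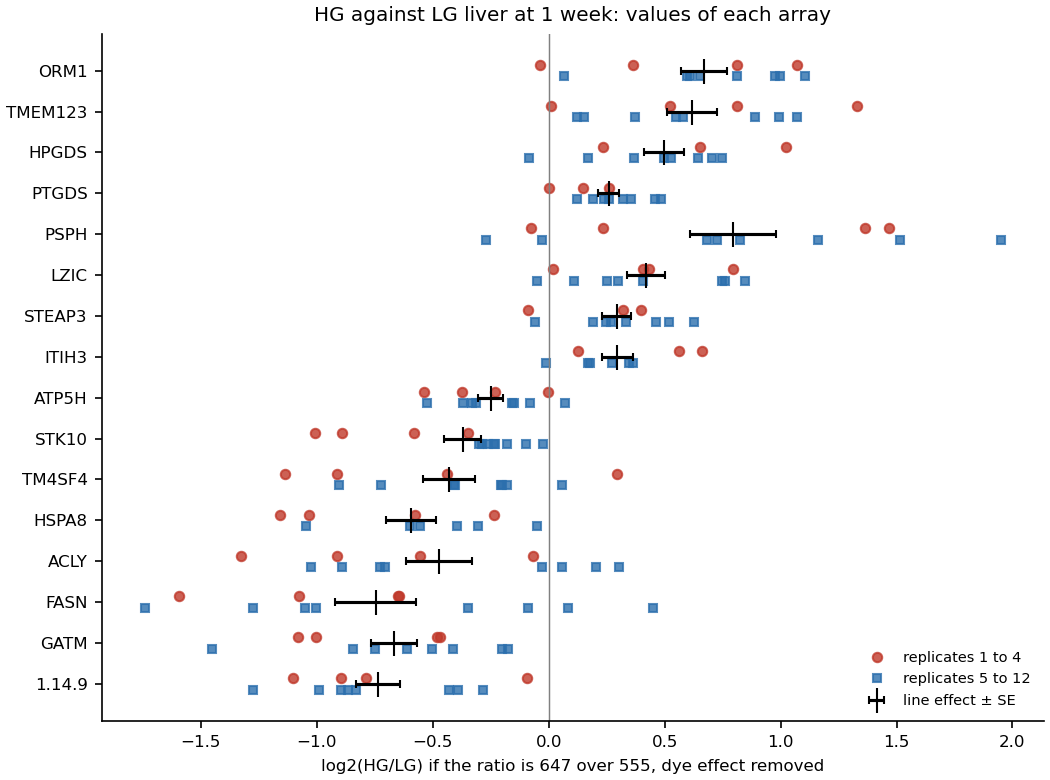
Log2 values of 16 probes on the 12 arrays at 1 week, turned to HG over LG and with the dye effect removed, on the x axis. Red circles are replicates 1 to 4, blue squares replicates 5 to 12, and black bars the 12-array line effect ± SE. GATM and 1.14.9 lie below 0 on every array, and ORM1 above 0 on all but replicate 3.

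Another 3 genes stood higher in HG just short of the threshold. PTGDS and HPGDS are the lipocalin-type and the glutathione-dependent enzyme that make prostaglandin D2 from prostaglandin H2, and TMEM123 encodes a mucin-like membrane protein. Each of the 3 had a limma adjusted p of 0.0704 in the 12-array fit of all probes. When the probes were averaged to 1 value a named gene, an alternative added after the data were seen, these 3 genes passed with an adjusted p of 0.0364 each, beside ORM1 and GATM at 0.0154. That made 5 genes of 3265 (0.153%), 4 higher and 1 lower in HG, and 150 genes (4.59%) at an unadjusted p under 0.05, 82 above (2.51%) and 68 below 0 (2.08%). Each of these 5 genes had 1 tested probe, so the averaging left its values as they were. Probes without a symbol were left out, and the adjustment ran over 3265 genes in place of 6731 probes.

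PTGDS had 0.15, 0.26 and 0.00 on replicates 2, 3 and 4 and no value on replicate 1. PTGDS ran from 0.12 to 0.48 on replicates 5 to 12, with a median of 0.29. With the dye effect removed none of its 11 values was below 0, and its line effect was 0.26 (SE 0.044). With the dye effect left in, PTGDS was above 0 on 1 array with HG in 555 and on 6 with HG in 647. HPGDS had 0.24, 0.65 and 1.02 on replicates 1, 2 and 4 and no value on replicate 3. HPGDS ran from -0.09 to 0.75 on replicates 5 to 12, with a median of 0.51. Only replicate 12 was below 0 for HPGDS, and the line effect was 0.50 (SE 0.086).

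TMEM123 had 0.81, 0.52, 0.01 and 1.33 on replicates 1 to 4. TMEM123 ran from 0.12 to 1.07 on replicates 5 to 12, with a median of 0.57. With the dye effect removed it was above 0 on all 12 arrays, with a line effect of 0.62 (SE 0.108). Its dye effect was 0.64 (limma adjusted p = 0.000952). With that dye effect left in, TMEM123 was above 0 on 3 arrays with HG in 555 and on 6 with HG in 647.

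PSPH, which carries out the last step of serine synthesis, had the largest line effect of all probes tested, 0.80 (SE 0.186, limma adjusted p = 0.276), and did not pass. Its values were -0.08, 1.36, 0.23 and 1.47 on replicates 1 to 4. PSPH ran from -0.27 to 1.95 on replicates 5 to 12, with a median of 0.77. PSPH was above 0 on 9 of 12 arrays, and replicates 1, 6 and 12 were below it. Over all probes, 10 had a line effect beyond 0.5 in size and 0 beyond 1 on the log2 scale.

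Further genes by the naming rule stood higher in HG without passing. They included LZIC with a log2 value of 0.42, STEAP3, a reductase that serves iron uptake, with 0.29, and ITIH3, a heavy chain of the plasma inter-alpha-trypsin inhibitor, with 0.30. Genes that stood lower in HG without passing included HSPA8, the constitutive cytosolic Hsp70 chaperone, with -0.60, TM4SF4 with -0.43, SPIA4 with -0.50, and ATP5H, a subunit of the mitochondrial ATP synthase, with -0.25. A second probe of HSPA8 had -0.16. STK10, a serine/threonine kinase, had -0.37 on one probe and 0.13 on the other, so its probes disagreed in sign.

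None of the 12 lipogenic genes tested was called, although FASN had one of the largest line effects of all probes. By gene, 10 of the 12 were below 0 and 2 above, with a median log2 value of -0.039, beside 1432 below 0, 1833 above and a median of 0.0054 over all 3265 genes. FASN and ACLY were the 2 with an unadjusted p under 0.05 (16.7% of the list), against 4.59% of all 3265 genes. The list was chosen with earlier results of these data known, so its count is not independent evidence of a direction.

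FASN had log2 values of -0.64, -1.60, -1.08 and -0.65 on replicates 1 to 4. FASN ran from -1.74 to 0.45 on replicates 5 to 12, with a median of -0.68. Replicates 1 to 4 were all below 0, while replicates 6 and 7 were above it. Its line effect was -0.75 (SE 0.174, n = 12 arrays, limma adjusted p = 0.276).

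ACLY had -0.56, -1.33, -0.91 and -0.07 on replicates 1 to 4. ACLY ran from -1.02 to 0.30 on replicates 5 to 12, with a median of -0.37. The arrays above 0 were replicates 6, 7 and 11, of which 6 and 7 were also those above 0 for FASN. The line effect of ACLY was -0.47 (SE 0.141, limma adjusted p = 0.565).

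FADS2, the delta-6 desaturase, had 3 probes with -0.18, -0.35 and -0.0020. THRSP, the thyroid hormone responsive Spot 14 protein of lipogenic cells, had -0.34 on one probe and 0.0003 on the other. On the first THRSP probe replicate 9 stood at -2.43 against a median of 0.04 over replicates 5 to 12, and the line effect was -0.13 without it. SREBF1, which encodes a transcription factor of the lipogenic genes, had 0.01, and ACACA, acetyl-CoA carboxylase, had -0.03. Several further genes of this pathway, among them SCD and ME1, were not analysed here.

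In cholesterol synthesis 11 of 14 genes were below 0, with a median of -0.008, and none was called. FDPS, farnesyl diphosphate synthase, had -0.16, and CYP51A1, lanosterol demethylase, had -0.17 and -0.0032 on its 2 probes. Replicate 1 stood at -0.92 on the first CYP51A1 probe, and without it the line effect was -0.098. The liver fatty acid binding proteins LBFABP and FABP1 had -0.26 and -0.23 and did not pass, and FABP1 had -0.14 without replicate 1. Fatty acid oxidation had 7 of 11 genes above 0 and a median of 0.024. ACADL, an acyl-CoA dehydrogenase, had 0.087, the only one of that list with an unadjusted p under 0.05 (9.09% of the list, against 4.59% of all genes).

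**Figure D2:**
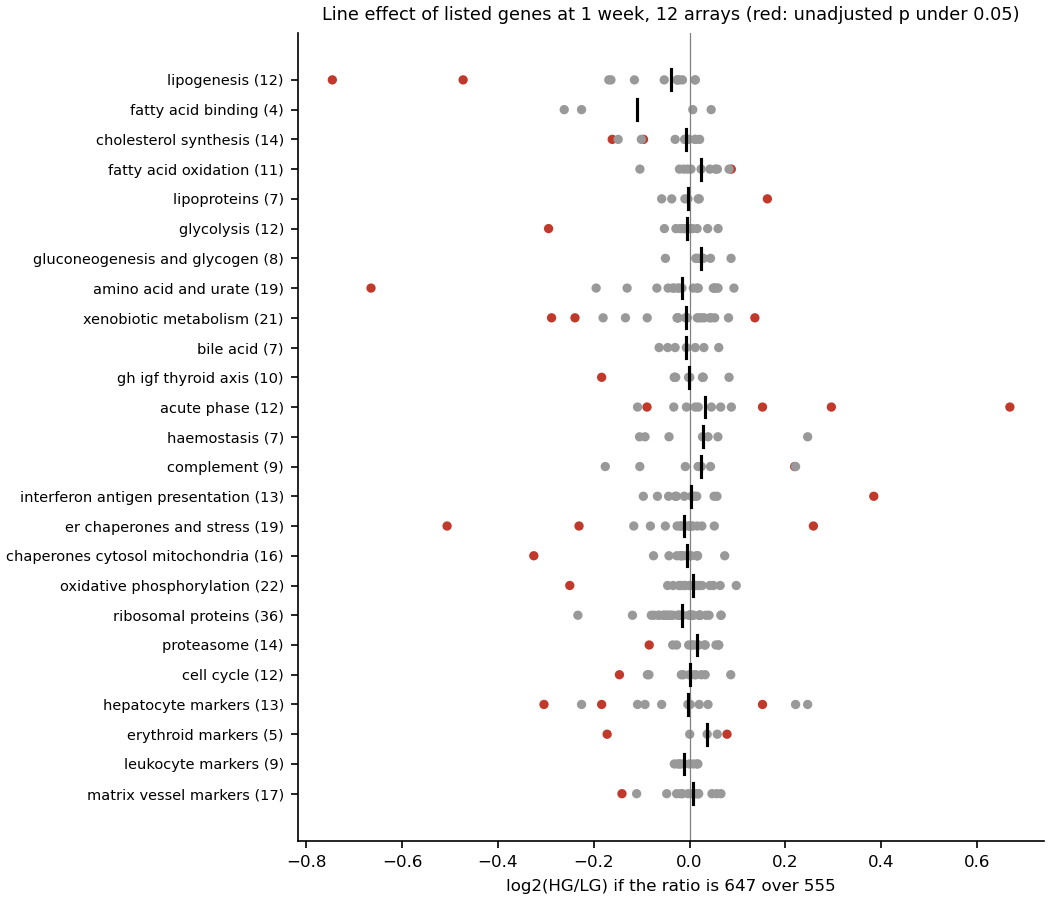
Gene-level log2 line effects at 1 week from all 12 arrays (x axis), by gene list (y axis, number of genes tested in brackets). Points are genes, red where the unadjusted p was under 0.05, and black bars are list medians. FASN and ACLY stand apart on the negative side of lipogenesis, GATM in amino acid and urate metabolism and ORM1 on the positive side of the acute phase list.

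Of the acute phase proteins, ORM1 was called and the other 11 genes of the list were not. By gene, 8 of 12 were above 0 with a median of 0.032, beside 1833 of 3265 over all genes. ORM1, ITIH3 and TF, the iron carrier transferrin, had an unadjusted p under 0.05 above 0, and SAA, serum amyloid A, had -0.089 below it. Over all genes 4.59% passed at that level, 2.51% above 0 and 2.08% below. TF had 0.25 and 0.087 on its 2 probes. Complement had 6 of 9 genes above 0 and a median of 0.024, with C8A, a chain of the membrane attack complex, at 0.22.

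Other secreted liver proteins did not move one way. ALB, serum albumin, had -0.29 and -0.32 on its 2 probes, and TTR, the thyroid hormone carrier transthyretin, had -0.33 and -0.04, the first being -0.21 without replicate 9. FGB, the fibrinogen beta chain, had 0.25, and C3, the central complement component, had 0.31 and 0.13. C3 was at -1.004, 0.56, -0.99 and 1.24 on replicates 1 to 4 on its first probe and ran from -0.61 to 1.40 on replicates 5 to 12. Replicates 1 and 3 carried HG in 555, and the dye effect removed was shared by both sets. The 2 ranges can therefore hold a dye effect that differs between the sets, and their widths are not compared. The line effect of this C3 probe was 0.20 without replicate 7. Over the 13 hepatocyte markers the median was -0.003, with 6 above and 7 below 0. In replicates 1 to 4 their median was -0.18 with 4 above 0, and in replicates 5 to 12 it was 0.012 with 7 above 0. Over all 3265 genes the medians were 0.019 in replicates 1 to 4 and -0.0015 in replicates 5 to 12. At an unadjusted p under 0.05 the markers gave 0 above and 3 below 0 in replicates 1 to 4, and 3 above and 1 below in replicates 5 to 12. All 3265 genes gave 75 above and 117 below 0 in replicates 1 to 4, and 79 above and 86 below in replicates 5 to 12. The difference between the sets was not tested for the list.

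Among chaperones and genes of the endoplasmic reticulum 13 of 19 were below 0 and none was called. HSP90B1, the endoplasmic reticulum Hsp90, had -0.51 (SE 0.146, limma adjusted p = 0.565), and P4HB, protein disulfide isomerase, had -0.23. CREB3L4, a membrane-bound transcription factor, had 0.37 and 0.10 on its 2 probes. In glycolysis ENO1, enolase, had -0.30 and -0.29 on its 2 probes. Of the xenobiotic list, ADH1C, an alcohol dehydrogenase, had -0.29, SULT, a sulfotransferase, had -0.24, and CYP2C18, a cytochrome P450, had 0.14.

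The growth hormone, insulin-like growth factor and thyroid list had 5 of 10 genes above 0, with a median of -0.001 and none called. GHR, the growth hormone receptor, had -0.031 (SE 0.030), and DIO1, the type 1 deiodinase that makes active thyroid hormone, had 0.028 (SE 0.031). Neither had an unadjusted p under 0.05. DIO1 had 30 spots on the array, 23 of them with a value at 1 week, and 1 tested probe, against 1 spot for GHR. With 1 array left out GHR lay between -0.049 and -0.019 and DIO1 between 0.011 and 0.044. IGF1, IGF2 and DIO3 were not analysed here. The 36 ribosomal protein genes had a median of -0.017, and 0 of them had an unadjusted p under 0.05, against 4.59% of all genes. IFIH1, a sensor of double-stranded RNA, had 0.38 (SE 0.135, limma adjusted p = 0.818) and stood apart from the other 12 genes of the interferon and antigen presentation list, which lay between -0.097 and 0.057.

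Markers of other cells that liver RNA can hold gave small values. All 9 leukocyte markers lay between -0.032 and 0.017, and none was called. Of 5 erythroid markers, HBBA, a beta-type globin, had -0.17 and H1F0 had 0.08, and none was called. At an unadjusted p under 0.05, 1 of the 5 passed above 0 and 1 below (40% of the list), against 4.59% of all genes. HBBA had -0.59, -0.20, -0.36 and -0.26 on replicates 1 to 4 and ran from -0.28 to 0.09 on replicates 5 to 12. In these values replicates 1 and 3 lay below the whole second set. Both carried HG in 555, and the dye effect removed was shared by the sets. This split can therefore hold a dye effect that differs between the sets. The 17 matrix and vessel markers had a median of 0.008, with DCN, the proteoglycan decorin, at -0.14.

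The 2 sets of arrays were then compared. Replicates 1 to 4 called 2 probes (0.0297%), both lower in HG and both unnamed, 46.14.14 and 8.14.3. Replicates 5 to 12 called 5 probes (0.0743%): ORM1, PTGDS and 44.7.15 higher in HG, 1.14.9 and 13.14.11 lower. No probe was called in both sets. At an unadjusted p under 0.05, 403 probes (5.99%) passed in replicates 1 to 4 and 351 (5.21%) in replicates 5 to 12.

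The genes that led the 12-array fit were chosen from values of both sets, so a like effect in the 2 sets is partly fixed by that choice, and their values are given as a description. ORM1 had 0.55 in replicates 1 to 4 (limma adjusted p = 0.185) and 0.73 in replicates 5 to 12 (limma adjusted p = 0.0193). GATM had -0.76 in replicates 1 to 4 and -0.62 in replicates 5 to 12, and 1.14.9 had -0.72 and -0.75. PTGDS had 0.17 in replicates 1 to 4 (limma adjusted p = 1.00) and 0.30 in replicates 5 to 12 (limma adjusted p = 0.0397). FASN had -0.99 in replicates 1 to 4 and -0.62 in replicates 5 to 12, PSPH had 0.75 and 0.82, and HPGDS had 0.54 and 0.45. For none of these did the difference between the sets pass, with adjusted p from 0.663 to 0.979.

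The unnamed probe 8.14.3 had -0.95, -1.05, -1.08 and -1.67 on replicates 1 to 4. On replicates 5 to 12 the probe 8.14.3 ran from -2.32 to 0.54 with a median of -0.31. It was below 0 on every array but replicate 7. Its line effect was -1.19 in replicates 1 to 4 (limma adjusted p = 0.0212) and -0.58 in replicates 5 to 12 (limma adjusted p = 0.905).

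The unnamed probe 44.7.15 had 2.04, 0.21, -0.12 and 1.06 on replicates 1 to 4. On replicates 5 to 12 the probe 44.7.15 ran from 0.29 to 0.77 with a median of 0.68. The first set was spread wider than the second. Its line effect was 0.80 in replicates 1 to 4 (limma adjusted p = 0.749) and 0.59 in replicates 5 to 12 (limma adjusted p = 0.00613). The probe 13.14.11 had -0.35 in replicates 1 to 4 and -0.34 in replicates 5 to 12 (limma adjusted p = 0.0314).

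Across all 6731 probes the line effects of the 2 sets correlated at r = 0.405, given as a description since the sets share birds and probes are not independent replicates. The sign was the same for 3711 probes (55.1%). Of the 403 probes with an unadjusted p under 0.05 in replicates 1 to 4, 311 had the same sign in replicates 5 to 12, and 76 also passed there. Those 76 were 27 higher and 49 lower in HG. Of the 76, 33 had 14 as the second number of their spot position, 7 of them higher and 26 lower. Several of these, such as 42.14.16, 11.14.18 and 14.14.16, had the identical line effect of 0.0817 at 9 weeks. At 1 week these 3 had -0.293, -0.253 and -0.259. At 11 weeks 42.14.16, 14.14.16 and the ALB probe with -0.316 at 1 week had the identical -0.00699, and that ALB probe does not have number 14. Whether such spots are separate measurements was not tested. Over all 6731 probes 5.21% passed in replicates 5 to 12, counting both signs. Of the 351 in replicates 5 to 12, 239 had the same sign in replicates 1 to 4.

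Among the 36 of these 76 probes with a symbol were ORM1, TMEM123, HPGDS, LZIC, PSPH, ITIH3 and CREB3L4 above 0. GATM, HSPA8, FASN, ATP5H, STK10, TM4SF4, HSP90B1, both probes of ALB, FDPS, CYP51A1 and SULT were below 0.

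**Figure D3:**
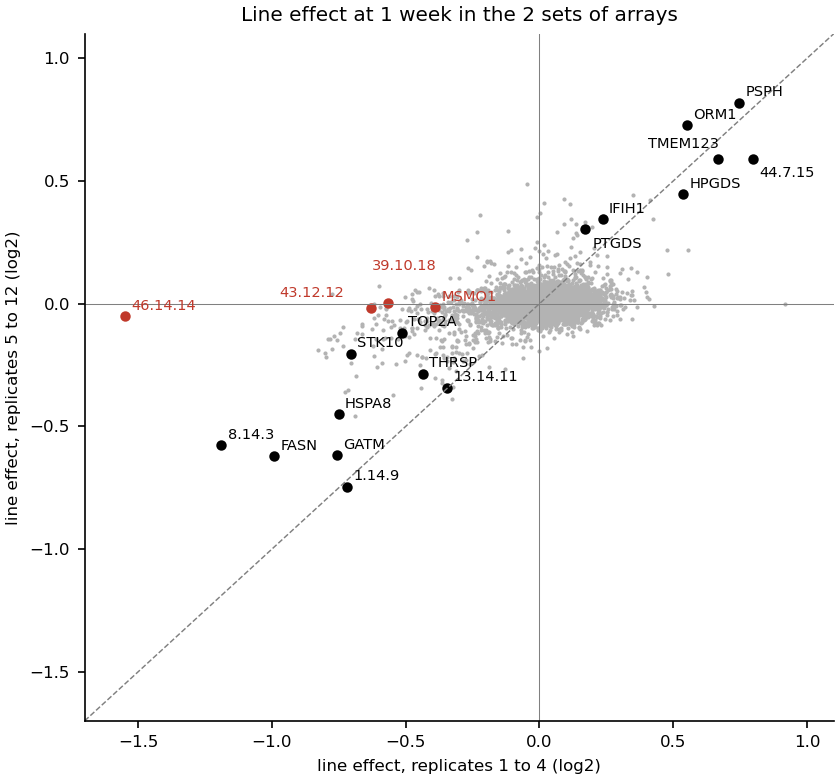
Log2 line effect of each of the 6731 probes in replicates 1 to 4 (x axis) and in replicates 5 to 12 (y axis), with probes named in the text in black and 4 probes whose difference between the sets was called in red. The dashed line marks equal values. The cloud is wider along the x axis, and ORM1, PSPH, GATM and 1.14.9 lie near the dashed line.

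The 2 sets of arrays differed in quality measures. Spots with a value averaged 8183 ± 736 on replicates 1 to 4 and 9863 ± 685 on replicates 5 to 12 (SD, n = 4 and 8, two-sided exact permutation p = 0.00808, adjusted over 2 tests 0.0121). The median absolute deviation of the log2 ratios averaged 0.235 ± 0.039 on replicates 1 to 4 and 0.159 ± 0.026 on replicates 5 to 12 (two-sided exact permutation p = 0.0121, adjusted 0.0121). The median SE of a line effect was 0.0873 with replicates 1 to 4 and 0.0317 with replicates 5 to 12, and the median size of a line effect was 0.058 and 0.024. The part of these measures in the differences between the sets was not tested.

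**Figure D4:**
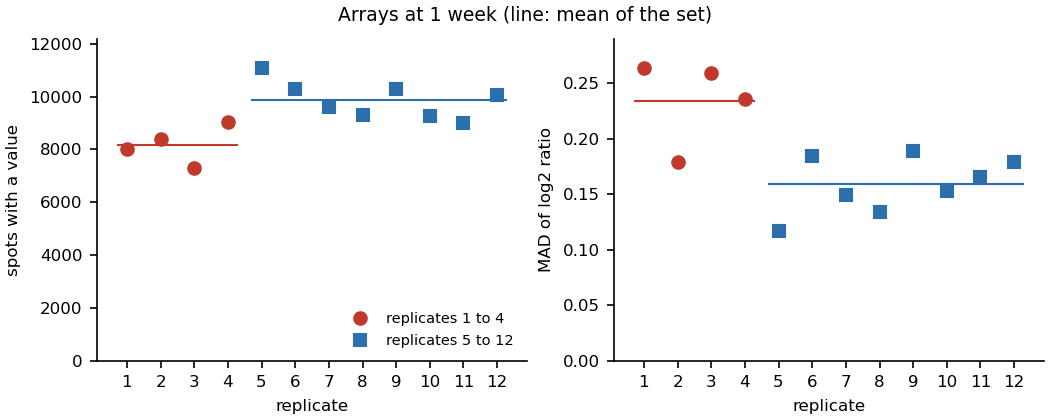
Spots with a value (left) and median absolute deviation of the log2 ratio (right) for each of the 12 arrays, by replicate (x axis). Lines are the means of the set. Replicates 1 to 4 hold 7291 to 9051 spots and replicates 5 to 12 hold 9008 to 11069.

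The difference of the line effect between replicates 1 to 4 and replicates 5 to 12 was called for 5 probes (0.0743%), all more negative in replicates 1 to 4. At an unadjusted p under 0.05, 610 probes (9.06%) passed. The 5 were the unnamed 46.14.14, 43.12.12 and 39.10.18, MBTD1, a chromatin-binding protein, and MSMO1, a methylsterol oxidase of cholesterol synthesis. For 4 of them, all but MBTD1, 1 of the 2 arrays of the first set with HG in 555 had no value, so the other array alone stood for that orientation.

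The probe 46.14.14 had -3.27, -0.01 and 0.35 on replicates 1, 2 and 4 and no value on replicate 3. On replicates 5 to 12 the probe 46.14.14 ran from -0.78 to 0.53 with a median of 0.00. Replicate 1 alone was far from the others. The difference of -1.50 (limma adjusted p = 0.000321), like the probe's call in replicates 1 to 4, could not be fitted without replicate 1.

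MSMO1 had -0.57, -0.24 and -0.19 on replicates 1, 2 and 4. MSMO1 ran from -0.08 to 0.08 on replicates 5 to 12, with a median of -0.02. The sets did not overlap for MSMO1, with replicate 1 the lowest. MSMO1 was named for its difference between the sets, so this separation is partly fixed by that choice. These values had the 12-array dye effect removed, while the test fitted a dye effect for each set. The difference was -0.38 (SE 0.054, limma adjusted p = 0.0328), and it was called in 2 of the 11 fits that left out 1 array.

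MBTD1 had -0.58, -0.10, -0.46 and -0.09 on replicates 1 to 4. MBTD1 ran from -0.11 to 0.22 on replicates 5 to 12. Replicates 1 and 3 lay below every array of the second set, and replicates 2 and 4 lay within its range. Replicates 1 and 3 carried HG in 555, and these values had the 12-array dye effect removed. The test fitted a dye effect for each set, so this split can hold a dye effect that differs between the sets. The difference was -0.33 (SE 0.050, limma adjusted p = 0.0328), lost without any of 8 of the 12 arrays.

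The probes 43.12.12 and 39.10.18 each had 1 low array in the first set, replicate 3, at -1.18 and -0.95. Their differences were -0.61 and -0.57. TOP2A, the topoisomerase of dividing cells, came next among named genes with -0.40 (limma adjusted p = 0.0512), and its second probe had 0.10. With 1 dye effect shared by the sets, and with probes measured on all 12 arrays, 0 differences were called, at unadjusted counts of 311 and 407.

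The dye effect was wider than the line effect. In the 12-array fit 2493 probes (37%) had a dye effect past the threshold, with a median size of 0.083 on the log2 scale against 0.026 for the line effect. The dye effect was called for 313 probes (4.65%) in replicates 1 to 4 and 3417 (50.8%) in replicates 5 to 12, and it correlated at r = 0.348 across probes between the sets. These 2493 probes are those that would be the line effect were the table already HG over LG.

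The line effect at 1 week was set against the mean of the line effects at 3, 5, 7, 9 and 11 weeks, in 1 fit of all 40 arrays and 6092 probes. The difference was called for 2 probes (0.0328%), and 180 (2.95%) passed at an unadjusted p under 0.05. MBD2, a methyl-CpG binding protein, had 0.08 at 1 week, against a mean of -0.17 at the other ages, a difference of 0.25 (limma adjusted p = 0.0382). The other probe of MBD2 had a difference of -0.03. The unnamed probe 41.13.18 had -0.16 at 1 week, against a mean of 0.84, a difference of -1.002 (limma adjusted p = 0.0230).

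MBD2 lost its call when any 1 of 8 of the arrays at 1 week was left out, and 41.13.18 for 5 of them. At 3, 5, 7, 9 and 11 weeks the probe 41.13.18 had 0.49, 2.20, 0.39, 0.40 and 0.74, each above its 1 week value. This probe was named for its difference from the other ages, so that order is partly fixed by the choice. With every array scaled to the same spread, 0 probes were called and 213 passed unadjusted. With a dye effect for each age and set, 32 were called.

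ORM1 had 0.67 at 1 week, then 0.38, 1.08, 2.19, -0.02 and 1.00 at 3, 5, 7, 9 and 11 weeks. GATM had -0.66 at 1 week, then 0.06, -0.80, -2.69, -0.07 and -0.72. FASN had -0.75 at 1 week, then -0.02, -0.9985, -1.65, -1.61 and -0.21. All 3 were nearer to 0 at 3 weeks than at 1 week, and their mean over the other ages did not differ from 1 week past the threshold.

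SULT had -0.24 at 1 week, against a mean of -1.45 at the other ages. Its values at 3, 5, 7, 9 and 11 weeks were -0.050, -0.71, -2.32, -2.39 and -1.77, so the value at 3 weeks was nearer to 0 than that at 1 week. The difference of 1.21 had a limma adjusted p of 0.0552 and did not pass. TMEM123 had 0.62 at 1 week, against a mean of 0.01 over the other ages, with -0.69 at 5 weeks and 0.55 at 7 weeks. HPGDS had 0.48 at 1 week in this fit, against a mean of -0.02.

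**Figure D5:**
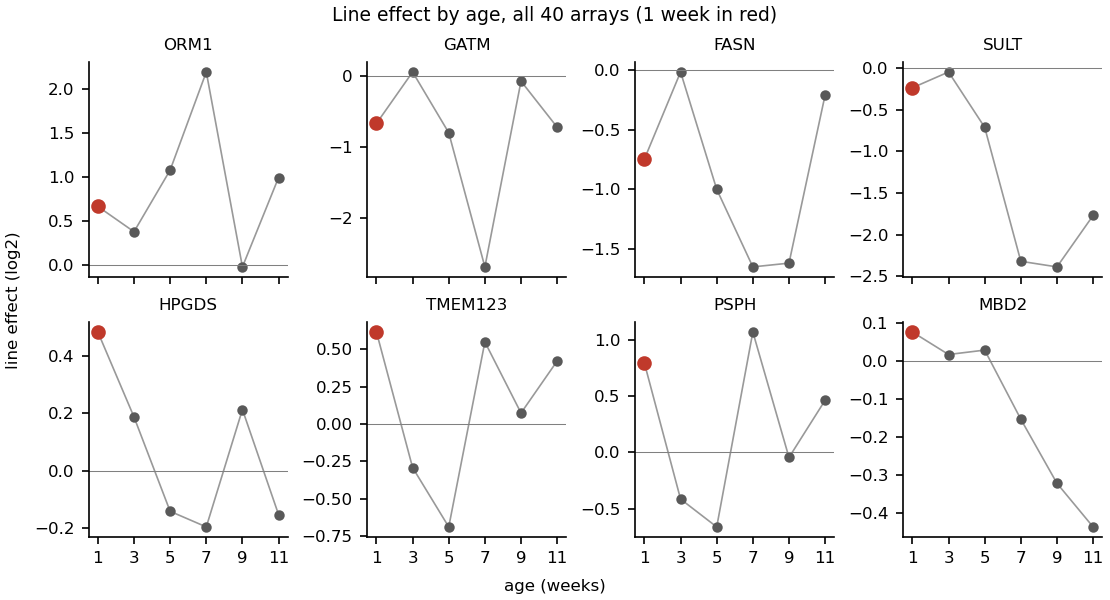
Log2 line effect (y axis) by age in weeks (x axis) for 8 genes from the fit of all 40 arrays, with 1 week in red and the other ages in grey. HPGDS is highest at 1 week among the ages, and ORM1 and GATM reach their extremes at 7 weeks.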

How the data were processed

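Liver RNA of HG and LG chickens was measured on 2-colour spotted cDNA arrays. The deposited table gives 1 linear dye ratio for each spot on each array, judged from its values, with array medians between 0.969 and 1.015 at 1 week. They were taken as normalized by the authors within each array. The method, scanner, background correction, spot filter and numerator dye are not given in the sources used here, and no further normalization was applied. cDNA was labelled indirectly, per the labels' protocols.

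Line and dye effects were fitted to log2 ratios with limma 3.58.1 in R 4.3.3, on all 12 arrays and on each set. The difference between the sets used a dye effect for each set. The contrast with the other ages used 1 dye effect and probes with values on 75% or more of each age's arrays. The number of arrays limits the precision. Exact permutation tests used scipy 1.17.1. The scripts were tested on simulated data.

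Symbols are those of the platform's annotation and can be old. Of 10601 annotated spots, all had 1 symbol, and the entrez ID of 10455 was found in the RefSeq gene table, with 0 symbols changed. The text names probes past a threshold, the 12 with the smallest p in each direction among those with the same sign on at least 75% of arrays, the 6 in each direction in each set, the 8 in each difference, up to 4 of each of 32 gene lists, and 40 genes looked up in any case. The genes and lists were chosen with earlier results of these data known. List values are means over the tested probes of a gene. Alternatives changed the filter, the dye term, the scale, the centring, the weights, the averaging and the spread, and left out each array.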

Additional observations from a re-analysis of the deposited data

Results flagged for a closer look

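The log2 dye ratios (not turned by line) of the named probes were checked for a single array far from the others of its dye orientation, in groups of 5 or 6 arrays. Chance alone marks about 1 in 20 such groups. Where HG carried 555, replicate 1 stood apart for the probe 46.14.14 at 3.82, for CYP51A1 at 0.882, for MSMO1 at 0.648 and for NTRK2, a neurotrophin receptor, at -0.466. In the same orientation replicate 3 stood apart for the probe 43.12.12 at 1.32, for the probe 39.10.18 at 1.15 and for ZP1, an egg envelope protein made by the liver in birds, at 0.746. Replicate 7 stood apart for GALM, galactose mutarotase, at -0.0442.

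Where HG carried 647, replicate 2 stood apart for STK10 at -0.900 and for PHYH, a peroxisomal hydroxylase, at -0.655. Replicate 4 stood apart for ACADL at 0.354. In the second set replicate 6 stood apart for MBTD1 at -0.0391 and replicate 8 for CCN2, a matricellular growth factor, at -0.0478. Of these 13 values far from their group, 10 were on replicates 1 to 4. The 13 were not compared with the number that chance would mark. The probes 46.14.14, 43.12.12 and 39.10.18, MSMO1 and ZP1 were named for a difference between the sets, so the place of their values is partly fixed by that choice.

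The line effect differed between replicates 1 to 4 and replicates 5 to 12 for 5 probes, by the test of the difference itself. The differences were -1.50 for 46.14.14, -0.612 for 43.12.12, -0.568 for 39.10.18, -0.377 for MSMO1 and -0.333 for MBTD1. The line effect at 1 week differed from the mean of the other ages for 2 probes, by -1.002 for 41.13.18 and by 0.250 for MBD2.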

How the results depend on the processing

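The count of 3 probes called with 12 arrays became 6 with probes measured on at least 6 of 12 arrays, 9 with a dye effect for each set, 5 with arrays scaled to the same spread, 20 with array weights (14 higher and 6 lower in HG) and 0 with the spread shared among all ages. The fit with the shared spread held 6092 probes, and 1.14.9 was not among them. Averaging to 1 value a named gene, added after seeing the data, gave 5 of 3265 genes, with the probes without a symbol left out. Taking the ratios as already HG over LG gave 2493, with 1151 above and 1342 below 0. It stayed at 3 with probes on all 12 arrays, without a dye effect, with each spot on its own and with a robust trend. Leaving out 1 array gave 0 (without replicate 2, 6 or 8) to 6 (without replicate 12). The 2 probes of replicates 1 to 4 became 0 without a dye effect and 1 by gene, and 1 to 82 with 1 array left out, the highest without replicate 4. The 5 probes of replicates 5 to 12 became 1 without a dye effect, 1 with scaled arrays and 2 by gene, and 0 to 4 with 1 array left out. The 5 differences between the sets became 0 with 1 shared dye effect, 1 with scaled arrays and 0 with probes on all 12 arrays, and 3 to 102 with 1 array left out. The 102 came without replicate 1, 86 without replicate 4 and 40 without replicate 3. The 2 differences from the other ages became 0 with scaled arrays and 32 with a dye effect for each age and set, and 0 to 3 with 1 array left out. The causes were not tested.

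No sign turned with 1 array left out. The only setting that turned signs was taking the ratios as already HG over LG. It gave C8orf22 -0.064, KMT2E -0.089, KANSL1 -0.085, NTRK2 -0.14, C8A -0.093, H1F0 -0.10 and DIO1 -0.11. It gave HSPA8 0.37, FASN 0.21, STK10 0.11, SPIA4 0.15, TM4SF4 0.056, DCN 0.21, ACLY 0.30, THRSP 0.057, TTR 0.49, HSP90B1 0.16, P4HB 0.18, FDPS 0.23, ENO1 0.22, ADH1C 0.26, HBBA 0.014 and GOT1 0.38, and the probes 8.14.3 0.051 and 13.14.11 0.15. No paired analysis was possible because each array already holds both lines, the 2 dye orientations at 1 week share no replicate number, and shared birds are not marked in the labels.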

Other observations

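Spots are named by 3 numbers. By the second of them, the probes with an unadjusted p under 0.01 in the 12-array fit were unevenly spread. Number 14 held 33 of the 87 such probes, 25 of them lower in HG and 22 without a symbol. Number 13 held 10, number 9 held 10 and number 12 held 8. All 3 called probes had number 14, and 16.2% of its probes had an unadjusted p under 0.05, against 3.97% of the others. Probes with number 14 also had a larger median SE of 0.057, against 0.040 for the others, and a larger median dye effect of 0.111 in size, against 0.081. Their median mean line effect at the other ages was 0.075 in size, against 0.048. Of the 76 probes that passed unadjusted in both sets of arrays with 1 sign, 33 had number 14, 7 of them higher and 26 lower in HG. Several of these shared the identical line effect of 0.0817 at 9 weeks, so the counts may not be of separate measurements. Some also shared -0.00699 at 11 weeks with an ALB probe that does not have number 14.

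The arrays differed in how far they followed the line effect of the other 11. The correlation across probes ran from -0.173 for replicate 7 to 0.404 for replicate 10. Replicates 1, 4, 6, 7 and 11 were below 0. With the dye effect of the other 11 arrays the correlation ran from 0.159 for replicate 2 to 0.688 for replicate 12.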
